A study of Arabidopsis thaliana with 13 samples.

Results

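The jacalin-type lectins of Arabidopsis thaliana are a large family of carbohydrate-binding proteins, named after jacalin, a lectin of jackfruit seeds. The genes described here are 10 listed loci, AT1G19715, AT1G52000, AT1G52050, AT1G52060, AT1G52070, AT1G52100, AT1G52120, AT1G73040, AT5G28520 and AT5G38550, found by looking up each locus in the platform's probe table. Of these 10 loci, 8 had a probe set (a group of short probes against 1 transcript) of their own, 1 (AT5G38550) shared a probe set with its neighbour and relative AT5G38540, and 1 (AT1G52120) had no probe set under its name and was not analysed here. The 9 member probe sets stand among 22746 probe sets that are not array controls, of which 13513 carry 1 gene name. The loci were chosen by name, but the family was selected on measured values of these arrays. Which values is not recorded, and the low signal of AT1G19715 in clv1-15 roots is taken here as the choosing one, so all member values of clv1-15 against Ler are given as description without a test. The selection may touch the tests of the other comparisons too.

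Proteins of the family carry 1 or more jacalin domains that bind mannose and related sugars. In Brassicaceae several of them associate with beta-glucosidases: the myrosinase-binding proteins bind the enzymes that split glucosinolates, and a group of root lectins joins the PYK10 complex, which forms when the contents of ER bodies meet those of broken cells. PYK10 is the main beta-glucosidase of ER bodies, spindle-shaped compartments of the endoplasmic reticulum that are abundant in Arabidopsis roots.

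Total RNA of whole roots was hybridised to 13 Affymetrix ATH1 arrays, 1 per sample. The groups were the CLE3 overexpression line CLE3ox 12-1 (n = 2) and the line CLE3ox 17-3 (n = 2), both in the Col-0 background, wild-type Col-0 (n = 3), the mutant clv1-15 in the Ler background (n = 3) and wild-type Ler (n = 3). All plants were 10 days old. The medium, MGRL, held 0.1 mM KNO3 together with 1% sucrose, days had 16 h of light followed by 8 h of dark, and the temperature was 22 °C, so every group, controls included, was on the same low nitrate supply. CLE3 encodes a small secreted peptide of roots and CLV1 a receptor kinase for peptides of this kind. The promoter that drives CLE3 and the nature of the clv1-15 lesion are not given in the sources used here. Each array is labelled a biological replicate, but whether replicates came from separate cultures is not stated, so the p-values measure only the spread between these arrays. Whole roots hold many cell types, and fewer cells of a type and less RNA per cell cannot be told apart.

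The deposited values were linear MAS5 signal intensities, scaled to the same trimmed mean on every array, with array medians from 189.8 to 200.1. PYK10, the 1 of 4 whole-root markers with a probe set under its name, had signals from 15777.8 to 22811.3 over all 13 arrays. Of 6 shoot markers, 2 had a probe set under their names and neither was at 0 on any array. Their summed signal was 673.8 to 800.8 in CLE3ox 12-1, 1006.2 to 1022.9 in CLE3ox 17-3 and 701.7 to 773.9 in Col-0, and it was 1436.9 to 1579.5 in clv1-15 and 912.0 to 1247.1 in Ler. The summed signal of the 2 measured root hair markers of 5, also never at 0, was 3290.3 to 3292.7 in CLE3ox 12-1, 2641.5 to 2834.9 in CLE3ox 17-3, 3374.4 to 3875.1 in Col-0, 2096.5 to 2378.4 in clv1-15 and 1503.4 to 1765.0 in Ler. The 2 measured phloem markers of 6 summed to 539.4 to 669.1 in CLE3ox 12-1, 649.4 to 748.1 in CLE3ox 17-3, 255.6 to 487.8 in Col-0, 268.8 to 310.2 in clv1-15 and 616.2 to 775.9 in Ler. The part of these markers in the differences below was not tested. On 3 arrays, replicate 2 of CLE3ox 12-1, replicate 2 of CLE3ox 17-3 and replicate 3 of Col-0, a hybridisation spike-in control read 3894.3 to 4092.7, above the other 10 arrays, and results that depend on this division are named below.

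Tests used log2(signal + 16) in limma, with Benjamini-Hochberg adjustment over all 15922 probe sets kept after the weakest 30% were left out, and a probe set passed at an adjusted p under 0.05. Fold changes are on this scale, which understates the change of weak signals. Of the 9 member probe sets, 6 passed this filter on low values and 3 (AT1G52000, AT1G52100 and AT5G28520) did not.

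AT1G52050, AT1G52060 and AT1G52070 stand next to each other on chromosome 1. In the RefSeq gene order of TAIR10.1, the row from AT1G52000 to AT1G52130 holds 15 genes, of which 10 are jacalin-type, 6 of these on the member list, and 4 of the other 5 are pseudogenes. The row also contains MBP1 and MBP2, which encode myrosinase-binding proteins. Neighbouring genes of similar sequence can bind each other's probes. The platform lists 1 gene for each of these 3 probe sets, but sequences were not compared here, so the signals of these 3 genes may not be independent.

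AT1G52050 had signals of 1806.2 and 1418.0 in CLE3ox 12-1, 1260.9 and 919.0 in CLE3ox 17-3 and 1465.6, 1473.3 and 1537.4 in Col-0. In the Ler background its signals were 3727.4, 3839.1 and 3343.8 in clv1-15 and 3085.8, 3893.3 and 3387.2 in Ler. All 7 arrays of the Col-0 background lay below all 6 arrays of the Ler background, and the CLE3ox 17-3 arrays lay below those of Col-0.

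AT1G52060 had signals of 2422.0 and 2560.0 in CLE3ox 12-1, 2015.7 and 1617.9 in CLE3ox 17-3 and 2507.1, 1926.2 and 2239.5 in Col-0. Its signals were 2983.7, 3704.3 and 2821.4 in clv1-15 and 2939.4, 3903.8 and 3319.8 in Ler. The order of the backgrounds was that of AT1G52050, with a narrower gap, while the CLE3ox 17-3 and Col-0 arrays overlapped.

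AT1G52070 had signals of 1918.0 and 2330.9 in CLE3ox 12-1, 1441.4 and 1492.1 in CLE3ox 17-3 and 1747.3, 1738.6 and 2234.9 in Col-0. Its signals were 1517.3, 1556.2 and 1300.3 in clv1-15 and 1930.4, 2277.8 and 1921.7 in Ler. Here the wild types overlapped, and CLE3ox 17-3 and clv1-15 each lay below their own wild type without overlap.

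AT1G19715 had signals of 209.5 and 285.5 in CLE3ox 12-1, 237.7 and 319.8 in CLE3ox 17-3 and 160.2, 200.8 and 223.7 in Col-0. Its signals were 91.4, 73.1 and 73.5 in clv1-15 and 205.2, 223.5 and 277.0 in Ler. By group mean the order was CLE3ox 17-3 with 278.8 ± 58.1 (SD, n = 2), CLE3ox 12-1 with 247.5 ± 53.7 (SD, n = 2), Ler with 235.2 ± 37.3 (SD, n = 3), Col-0 with 194.9 ± 32.2 (SD, n = 3) and clv1-15 with 79.3 ± 10.5 (SD, n = 3). Neighbours in this order overlapped array by array except for the step to clv1-15, whose arrays were all below those of every other group.

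AT1G73040 had signals of 108.7 and 117.0 in CLE3ox 12-1, 143.5 and 88.5 in CLE3ox 17-3 and 137.1, 80.4 and 101.3 in Col-0. Its signals were 50.3, 65.8 and 38.2 in clv1-15 and 43.8, 73.2 and 45.1 in Ler. All arrays of the Col-0 background were above all arrays of the Ler background, and neither CLE3ox lines nor clv1-15 separated from their wild types.

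The probe set that AT5G38550 and AT5G38540 share had signals of 270.1 and 262.7 in CLE3ox 12-1, 294.8 and 214.4 in CLE3ox 17-3 and 224.5, 296.6 and 259.3 in Col-0. Its signals were 144.8, 114.2 and 130.1 in clv1-15 and 175.8, 158.9 and 224.3 in Ler. Which of these genes gives the signal cannot be told apart, and its clv1-15 arrays were the lowest of all.

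**Figure D1:**
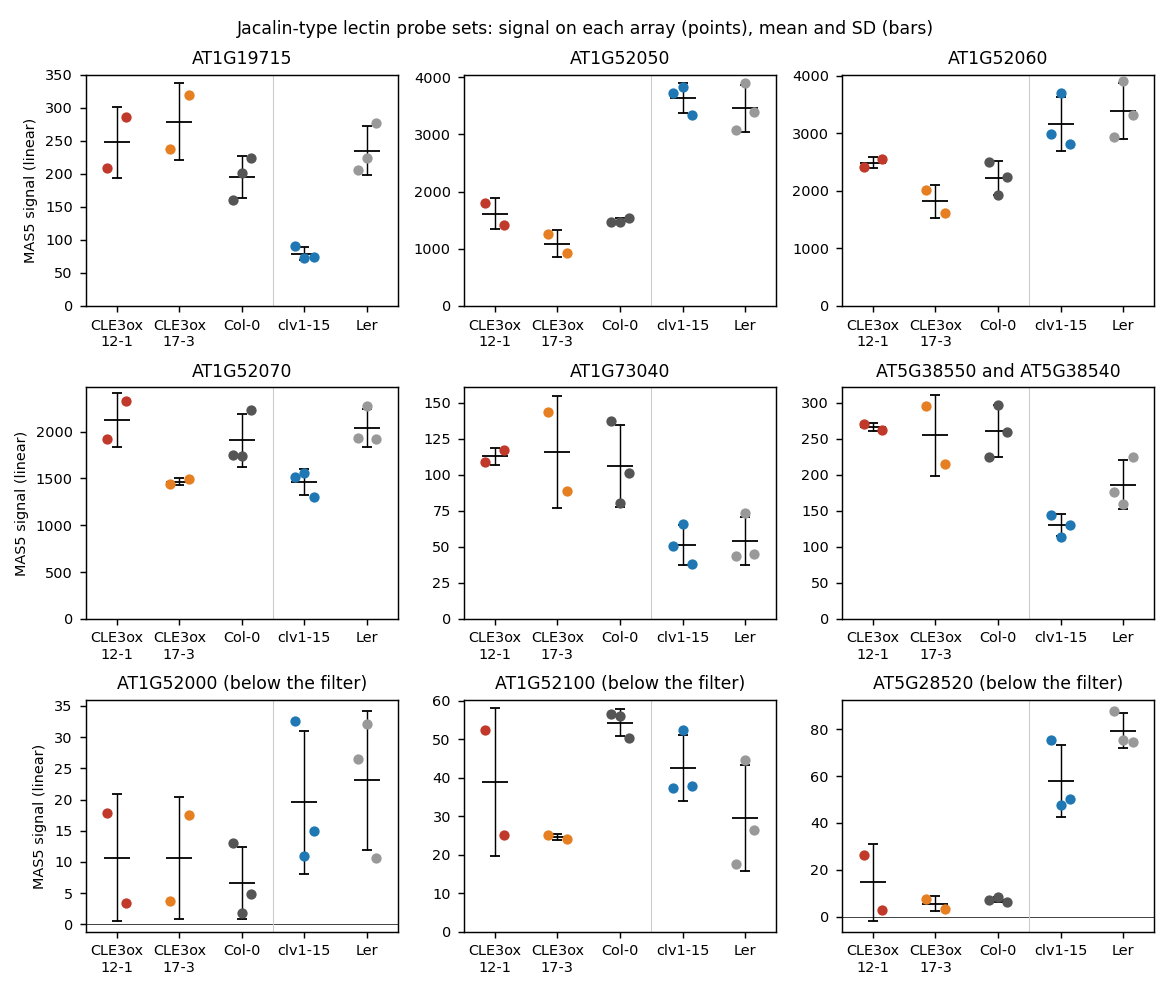
MAS5 signal of the 9 member probe sets (vertical axes, linear and different for each panel) in CLE3ox 12-1, CLE3ox 17-3, Col-0, clv1-15 and Ler. Points are arrays and bars are means with SD (n = 2, 2, 3, 3 and 3). AT1G52050 separates the backgrounds, with 919.0 to 1806.2 in the Col-0 background and 3085.8 to 3893.3 in the Ler background, and AT1G19715 is lowest in clv1-15.

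The 3 members below the filter had signals of at most 87.9 on any array. AT1G52000 ranged from 1.9 to 17.9 over the 7 arrays of the Col-0 background and from 10.6 to 32.6 over the 6 arrays of the Ler background. AT1G52100 had 52.4 and 25.2 in CLE3ox 12-1, 25.2 and 24.0 in CLE3ox 17-3, 56.5, 56.1 and 50.3 in Col-0, 37.4, 52.4 and 37.8 in clv1-15 and 17.6, 44.6 and 26.3 in Ler. Its Col-0 arrays thus lay above those of CLE3ox 17-3 and of Ler.

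AT5G28520 had 26.3 and 2.9 in CLE3ox 12-1, 7.7 and 3.2 in CLE3ox 17-3 and 7.2, 8.4 and 6.2 in Col-0. Its signals were 75.5, 47.6 and 50.2 in clv1-15 and 87.9, 75.5 and 74.6 in Ler. Every array of the Ler background was above every array of the Col-0 background, whose values were close to the lower end of the scale.

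The comparison of the CLE3ox lines with Col-0 addresses the effect of CLE3 overexpression in roots. The amount of CLE3 peptide was not measured here. Taken as the mean of both lines against Col-0, 0 of the 6 tested members passed (0 higher and 0 lower), where 2.44% of all tested probe sets passed, and 1 of 6 had an unadjusted p under 0.05 in limma, against 14.4% of all tested probe sets. The member differences ranged from -0.18 ± 0.11 for AT1G52050 to 0.40 ± 0.15 for AT1G19715 (log2, SE), with adjusted p-values of 0.489 and 0.208 from limma. Their median was -0.03 on the log2 scale, against 0.01 over all tested probe sets. The 95% interval for the mean of both lines excluded a 1.5-fold change either way for 5 of the 6 members, all but AT1G19715. Among these 5 were AT1G52060 (-0.06 ± 0.12, interval -0.31 to 0.19), AT1G52070 (-0.10 ± 0.10, -0.32 to 0.12) and the shared probe set of AT5G38550 and AT5G38540 (0.00 ± 0.14, -0.29 to 0.29). The SE of this mean leaves out the difference between the lines. In CLE3ox 17-3 alone, a 1.5-fold lower value lay inside the intervals of AT1G52050 (-0.74 to -0.19) and AT1G52070 (-0.63 to -0.10).

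For the chromosome 1 neighbours, the values were positive in CLE3ox 12-1 and negative in CLE3ox 17-3, without passing the test in either. AT1G52050 turned to -0.07 in CLE3ox 12-1 without replicate 1 of that line. In CLE3ox 12-1 against Col-0, AT1G52050, AT1G52060 and AT1G52070 differed by 0.10 ± 0.13, 0.17 ± 0.14 and 0.16 ± 0.12 (log2, SE), and 0 of 6 members passed, against 0.433% of all tested probe sets, with 0 at an unadjusted p under 0.05 in limma (8.46% of all). In CLE3ox 17-3 against Col-0 the same genes differed by -0.46 ± 0.13, -0.29 ± 0.14 and -0.37 ± 0.12, with adjusted p-values from limma of 0.0696, 0.331 and 0.139. In that line, too, 0 of 6 members passed, against 3.32% of all tested probe sets, while 3 of 6 had an unadjusted p under 0.05, as did 16.1% of all tested probe sets. Of the measured markers, 1 of 2 for shoot and 1 of 2 for phloem passed as higher in CLE3ox 17-3, and 1 of 2 for root hairs as lower. Their part in the member values was not tested. Array by array, 1 member (AT1G19715) was higher and 2 (AT1G52050 and AT1G52070) were lower in CLE3ox 17-3 without overlap with Col-0, and 33.5% of all tested probe sets had no overlap either way.

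Set directly against CLE3ox 12-1, CLE3ox 17-3 had AT1G52050 lower by 1.48-fold (-0.57 ± 0.14), AT1G52060 by 1.38-fold (-0.46 ± 0.15) and AT1G52070 by 1.44-fold (-0.52 ± 0.14), none past the test (limma, adjusted p 0.164, 0.408 and 0.183). The other 3 tested members differed by -0.08 to 0.16. In this comparison 0 of 6 members passed, against 0.264% of all tested probe sets, and 3 of 6 had an unadjusted p under 0.05, against 6.96%. These 3 genes were also lower without overlap of arrays, as were 17.6% of all tested probe sets.

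AT1G52050 passed the test when 1 array was left out: without replicate 1 of CLE3ox 17-3, it was lower by -0.69 ± 0.14 against Col-0 (limma, adjusted p 0.0169) and by -0.79 ± 0.15 against CLE3ox 12-1 (adjusted p 0.0418). With the division by spike-in signal as a block, AT1G52050 (-0.43 ± 0.12, adjusted p 0.0488) and AT1G52070 (-0.41 ± 0.10, adjusted p 0.0322) passed in CLE3ox 17-3 against Col-0. Over all alternatives, the adjusted p of AT1G52050 in that comparison ran from 0.0169 to 0.554 and that of AT1G52070 from 0.0322 to 0.373.

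**Figure D2:**
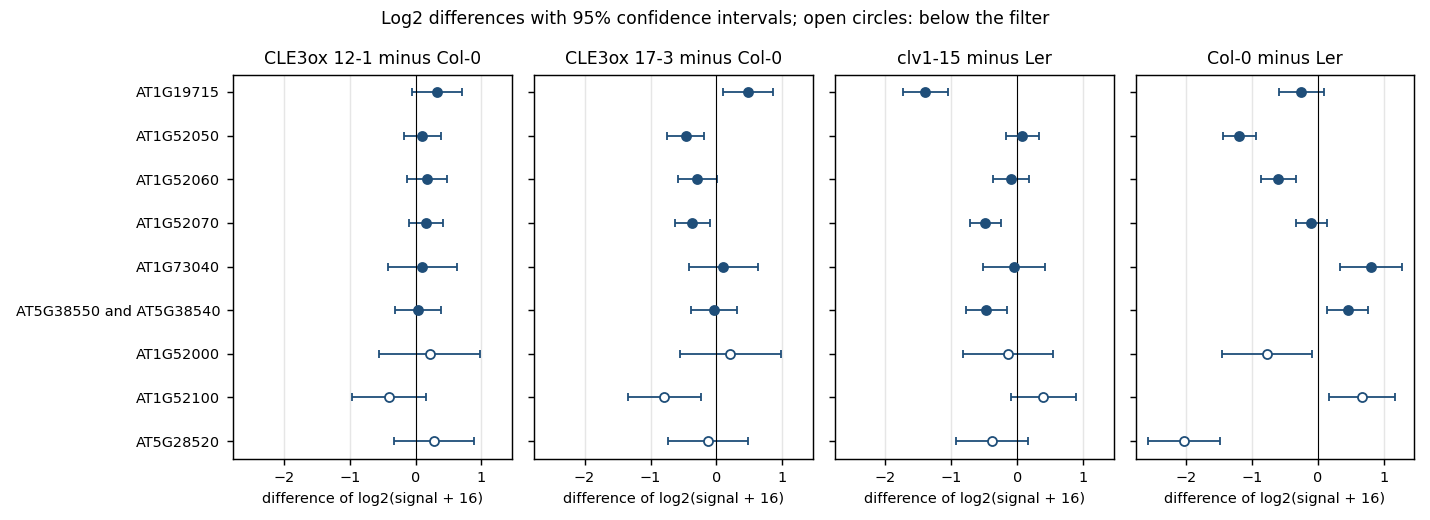
Log2 differences of the member probe sets (horizontal axes) with 95% intervals from limma, in panels for CLE3ox 12-1 minus Col-0, CLE3ox 17-3 minus Col-0, clv1-15 minus Ler and Col-0 minus Ler. Filled points passed the filter on low signal and open points did not. AT1G52050 is at 0.10 in CLE3ox 12-1 and -0.46 in CLE3ox 17-3, AT1G19715 is at -1.39 in clv1-15, and the intervals of Col-0 minus Ler lie on both sides of 0.

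The comparison of clv1-15 with Ler addresses a mutation of the receptor gene. AT1G19715 was 2.63-fold lower in clv1-15 than in Ler (-1.39 ± 0.16, log2, SE), the value taken here as the one that chose the family. It was the 1 of 6 members lower by at least 1.5-fold, as were 2.22% of all tested probe sets. With a pseudocount of 64 in place of 16 the AT1G19715 difference was -1.06. AT1G52070 was 1.40-fold lower (-0.48 ± 0.11) and the shared probe set of AT5G38550 and AT5G38540 was 1.38-fold lower (-0.47 ± 0.15), also without overlap of arrays. AT1G52050 (0.08 ± 0.12), AT1G52060 (-0.10 ± 0.13) and AT1G73040 (-0.05 ± 0.22) had arrays that overlapped with Ler. The member median was -0.28 on the log2 scale, against -0.02 over all tested probe sets. Without overlap, 3 of 6 members were lower, as were 20.0% of all tested probe sets. AT1G19715 is part of the median and of this count, so neither is independent of the selection. Both measured shoot markers and 1 of 2 root hair markers passed as higher in clv1-15, and 1 of 2 phloem markers passed as lower. Of all 15922 tested probe sets, 1096 (6.88%) passed as higher and 1338 as lower. The part of other tissue in the member values was not tested.

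AT1G52070 thus differed from its neighbours in clv1-15 by its values, with -0.48 beside 0.08 and -0.10, though no test of that difference between genes was made. For AT1G19715, each comparison's own values stand on either side of 0, at 0.32 ± 0.18 in CLE3ox 12-1 and 0.48 ± 0.18 in CLE3ox 17-3 against Col-0, and at -1.39 ± 0.16 in clv1-15 against Ler. The values of the lines did not pass (limma, adjusted p 0.681 and 0.182). The clv1-15 value is the one taken here as choosing the family, so the opposite signs are not independent of the selection.

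More members passed between the wild types than in the other comparisons tested. Col-0 minus Ler was tested for 5 members, leaving out AT1G19715 because its Ler values are part of the choosing value, and 4 of the 5 passed, 2 higher and 2 lower in Col-0. These 5 use the same Ler arrays, so their tests are not independent of the selection. This has to be read against a background of 45.3% of all tested probe sets, 20.9% higher and 24.4% lower. Of the measured markers, 2 of 2 for root hairs passed as higher in Col-0. As lower passed 2 of 2 for phloem, 1 of 2 for shoot and the whole-root marker PYK10. The PYK10 call (-0.25, limma, adjusted p 0.0115) was lost without replicate 1 of Col-0 (0.0525) and without replicate 3 of Ler (0.0521). The part of these markers in the member values was not tested. AT1G52050 averaged 1492.1 ± 39.4 in Col-0 and 3455.4 ± 408.1 in Ler (SD, n = 3 each), 2.29-fold lower in Col-0 (-1.20 ± 0.12, limma, adjusted p 7.35e-07). AT1G52060 averaged 2224.3 ± 290.7 in Col-0 and 3387.7 ± 485.8 in Ler, 1.52-fold lower in Col-0 (-0.60 ± 0.13, adjusted p 0.00112). AT1G52070, the third of these neighbours, averaged 1906.9 ± 284.1 in Col-0 and 2043.3 ± 203.1 in Ler and did not pass (-0.10 ± 0.11, 95% interval -0.34 to 0.13, adjusted p 0.462).

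The members past the filter that were higher in Col-0 lie elsewhere in the genome. AT1G73040, on another stretch of chromosome 1, averaged 106.3 ± 28.7 in Col-0 and 54.0 ± 16.6 in Ler, 1.74-fold higher in Col-0 (0.80 ± 0.22, limma, adjusted p 0.00757). Its Ler signals lay near the filter, which kept probe sets with mean signals down to 52.1, so its call as higher in Col-0 is not independent of the filter. With no filter AT1G73040 also passed (limma, adjusted p 0.0162). The shared probe set of AT5G38550 and AT5G38540 averaged 260.1 ± 36.1 in Col-0 and 186.3 ± 33.9 in Ler, 1.37-fold higher in Col-0 (0.45 ± 0.15, adjusted p 0.0192). That call was lost without replicate 2 of Col-0 (adjusted p 0.0914), without replicate 1 of Ler (0.0593) and without replicate 2 of Ler (0.0869). AT1G19715 was at -0.25 ± 0.16 with overlapping arrays, given without a test.

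With no filter on low signal, 6 of 8 members passed in Col-0 against Ler, 3 in each direction, where 32.5% of all 22746 probe sets passed. AT5G28520 then passed as lower in Col-0, with mean signals of 7.27 in Col-0 and 79.3 in Ler. Its Col-0 signals are at the low end of the scale and detection calls were not used, so the size of its log2 difference is set by the pseudocount and is not given. AT1G52100, which lies in the chromosome 1 row, was higher in Col-0 by 0.67 ± 0.23 (limma, adjusted p 0.0398). AT1G52000, also in the row, was at -0.77 ± 0.32 and did not pass (limma, adjusted p 0.0818). With a mean signal of 6.63 in Col-0, the size of that difference depends on the pseudocount too. The array's probes were designed on the Col-0 sequence, so a difference in transcript level between the wild types and a difference in how well Ler transcripts bind the probes cannot be told apart. For AT1G52050, AT1G52060 and AT5G28520 the higher signal was in Ler, and probe binding was not tested for any member.

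The genes in and around the row that are not jacalin-type did not share 1 direction between Col-0 and Ler. Nor did all tested probe sets, with 20.9% past the test as higher in Col-0 and 24.4% as lower. Of the 6 tested neighbours that are not jacalin-type, out of 12 with a probe set, 2 were higher in Col-0, 1 was lower and 3 did not pass, against 45.3% of all tested probe sets past the test. Named after their values were seen, they are AT1G52140 (0.86 ± 0.10, limma, adjusted p 5.49e-06) and AT1G52200 (1.39 ± 0.09, adjusted p 6.72e-09), both higher, and AR791 (-0.40 ± 0.10, adjusted p 0.00303), which stands next to AT1G52070 and is lower in Col-0. AT1G51990, next to AT1G52000 and below the filter, had signals of 12.9, 1.5 and 14.1 in Col-0 and 99.7, 108.5 and 87.5 in Ler. In the mean of the CLE3ox lines against Col-0, 0 of these 6 neighbours passed (2.44% of all tested probe sets) and 0 had an unadjusted p under 0.05 in limma (14.4%).

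**Figure D3:**
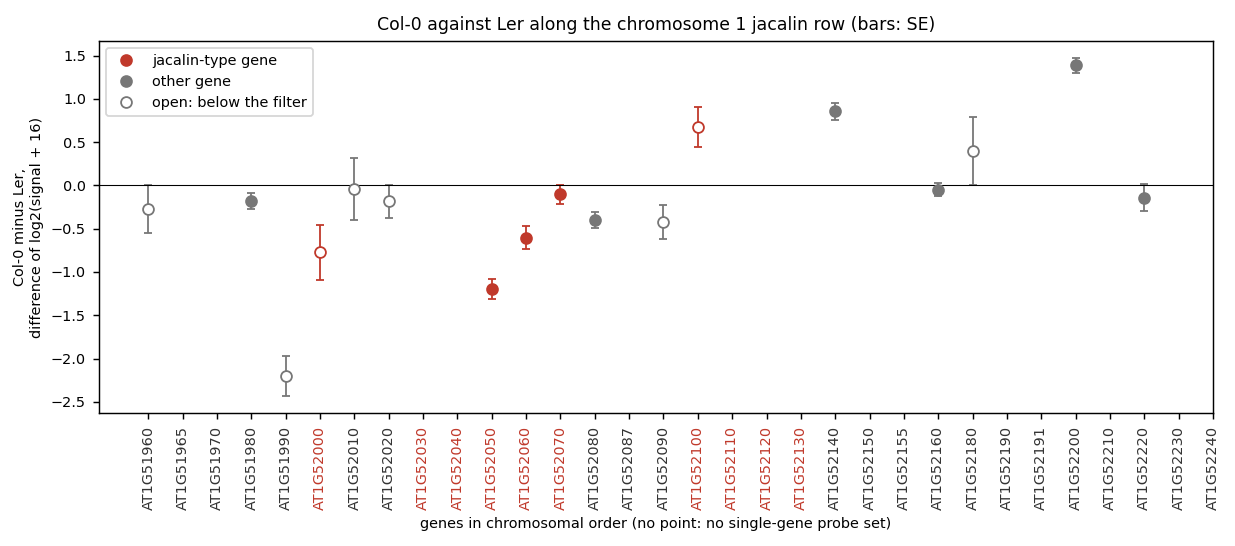
Col-0 minus Ler (log2, with SE, vertical axis) for the genes of the chromosome 1 row and its neighbours in gene order (horizontal axis, evenly spaced), from the fit without a filter. Jacalin-type and other genes are marked apart and open points are genes below the filter. AT1G52050 at -1.20 and AT1G52060 at -0.60 stand beside AT1G52070 at -0.10.

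Outside the member list, 40 further jacalin-type loci were looked up, 15 had a probe set under their names, and 8 passed the filter. In the mean of the CLE3ox lines against Col-0, 1 of these 8 was higher and 1 lower, with 1.06% of all tested probe sets past the test as higher and 1.39% as lower. AT5G35940 had 160.2 and 219.2 in CLE3ox 12-1, 166.8 and 279.8 in CLE3ox 17-3 and 106.5, 82.0 and 110.5 in Col-0. In CLE3ox 12-1 alone the gene did not pass. In CLE3ox 17-3 alone it was higher by 1.02 (log2, limma, adjusted p 0.0116). Without replicate 2 of that line, which leaves 1 array of it, the difference was 0.67, so this call depends on that array. All 4 CLE3ox arrays were above all 3 Col-0 arrays, and the mean of the lines was 1.89-fold higher than Col-0 (0.92 ± 0.18, limma, adjusted p 0.0087). The call was lost without replicate 2 of Col-0 (adjusted p 0.0505) and within the arrays of low (0.167) or high (0.0904) spike-in signal, with differences of 0.71 and 1.06.

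AT5G49870 had 420.6 and 417.4 in CLE3ox 12-1, 269.4 and 286.6 in CLE3ox 17-3 and 454.1, 480.2 and 443.1 in Col-0. All arrays of both lines were below those of Col-0, and those of CLE3ox 17-3 were lowest. The mean of the lines was 1.33-fold lower than Col-0 (-0.41 ± 0.09, limma, adjusted p 0.03), a call lost under 12 of 22 alternatives, among them the removal of any 1 array of these groups (adjusted p up to 0.122). CLE3ox 17-3 alone was 1.62-fold lower (-0.69 ± 0.11, adjusted p 0.00243) and kept the call under 17 of 17 alternatives, while CLE3ox 12-1 differed by -0.13 ± 0.11 (adjusted p 0.85). The direct difference between the lines was -0.57 ± 0.12 (adjusted p 0.0831), of the size seen in AT1G52050.

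In clv1-15, AT5G49870 had 187.4, 238.3 and 241.0, against 148.5, 149.6 and 159.9 in Ler, and rose 1.41-fold (0.49 ± 0.10, limma, adjusted p 0.0046). It was the 1 of 8 further jacalin-type genes that passed there in the main setting (JAL33 passed as lower under 3 of 18 alternatives), and 15.3% of all tested probe sets passed, 6.88% as higher. AT5G35940 did not pass in clv1-15 (0.13 ± 0.19, adjusted p 0.688).

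Between Col-0 and Ler, 3 of the 8 further genes were higher and 4 lower in Col-0, against 45.3% of all tested probe sets past the test. AT5G35940 averaged 99.7 in Col-0 and 479 in Ler and was 4.23-fold lower in Col-0 (-2.08 ± 0.19, limma, adjusted p 2.69e-07). AT1G05770 had 73.1, 29.1 and 38.4 in Col-0 and 130.8, 124.9 and 161.7 in Ler. It passed the filter through the higher signals of the Ler background, so its call as lower in Col-0 is not independent of the filter. AT5G49870 was 2.82-fold higher in Col-0 (1.49 ± 0.10, adjusted p 1.02e-08), and AT2G25980 was 2.65-fold higher (1.41 ± 0.10, adjusted p 2.61e-08). Members and further genes alike thus held differences of both signs between the wild types.

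The genes of ER bodies and of the PYK10 complex, to which several root lectins belong, were looked up as well. Of 21 listed loci, 10 had a probe set under their names and 8 were tested, 3 of these being jacalin-type lectins counted above as well. In the mean of the CLE3ox lines 0 of 8 passed (2.44% of all tested probe sets), with 1 at an unadjusted p under 0.05 in limma (14.4%). The lectin gene JAL22 passed as higher there without replicate 1 of CLE3ox 17-3, and in CLE3ox 17-3 against Col-0 under 3 of 17 alternatives. In clv1-15 0 of 8 passed (15.3% of all), with 2 at an unadjusted p under 0.05 (30.4%). JAL33 passed as lower in clv1-15 under 3 of 18 alternatives, and the probe set of BGLU22 and BGLU21 under 1, the quantile normalization. Between Col-0 and Ler, 2 of 8 were higher and 6 lower in Col-0, where 20.9% and 24.4% of all tested probe sets passed. Their median was -0.37, against -0.04 over all tested probe sets. PYK10, among the 6 lower, lost its call without replicate 1 of Col-0 and without replicate 3 of Ler.

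The probe set shared by BGLU22 and BGLU21, beta-glucosidases related to PYK10, was 2.04-fold lower in Col-0 (-1.03 ± 0.07, limma, adjusted p 5.16e-09), with 6412.0, 6126.2 and 6911.1 in Col-0 and 13242.8, 13192.5 and 13324.3 in Ler. NAI1, a transcription factor needed for ER bodies to form, was 1.71-fold lower in Col-0 (-0.77 ± 0.13, adjusted p 0.000186). NAI2, a protein of the ER body itself, was 1.62-fold higher in Col-0 (0.70 ± 0.09, adjusted p 1.8e-05), as was the lectin gene JAL33 by 1.44-fold (0.53 ± 0.09, adjusted p 0.000209).

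**Figure D4:**
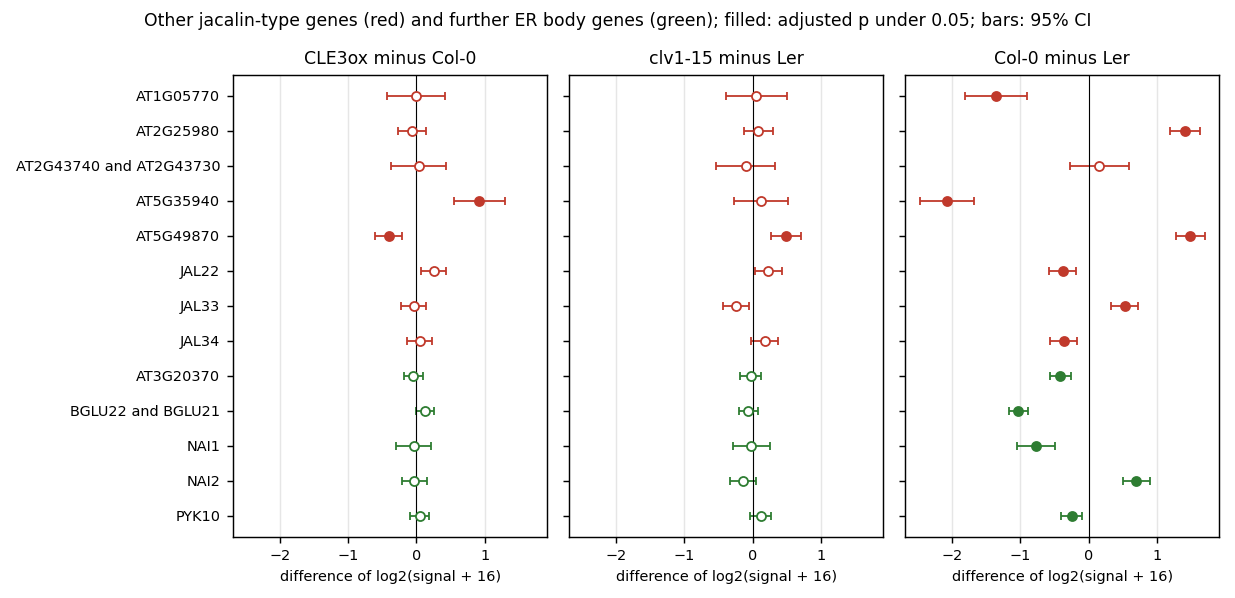
Log2 differences with 95% intervals (horizontal axes) of the further jacalin-type genes and the ER body and PYK10 genes that passed the filter, by comparison, with filled points for those past the test. AT5G35940 is at 0.92 in CLE3ox minus Col-0 and at -2.08 in Col-0 minus Ler, and AT5G49870 is at -0.41 and 1.49 in these comparisons and at 0.49 in clv1-15 minus Ler.

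Array by array, the members did not vary as 1 block. With the mean of each background subtracted, Pearson's r over the 13 arrays was 0.74 between AT1G52050 and AT1G52060, 0.64 between AT1G52060 and AT1G52070 and 0.41 between AT1G52050 and AT1G52070. Within the backgrounds, r between AT1G52050 and AT1G52060 was 0.78 over the 7 arrays of the Col-0 background and 0.73 over the 6 arrays of the Ler background. For AT1G52050 and AT1G52070 it was 0.60 in the Col-0 background and 0.08 in the Ler background. AT1G19715 and the shared probe set of AT5G38550 and AT5G38540 had r of 0.90 in the Ler background, where both are low in clv1-15, and -0.16 in the Col-0 background. These correlations are descriptions: the arrays share their groups and scaling, and neighbouring genes may share probe binding.

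The same measure, taken over 8727 single-gene probe sets, gave the genes most like each member. AT1G19715 was nearest to AT2G21440 (r = 0.97 over 13 arrays), AT5G14050 (0.95) and the defensin gene PDF2.1 (0.95). AT1G52050 was nearest to AT5G10130 (0.89), AT1G17090 (0.89) and AT3G19430 (0.87), and AT1G52060 to AT1G80800 (0.90), AT5G55610 (0.89) and AT1G13050 (0.88). AT1G52070 was nearest to AT5G60520 (0.96), AT3G02760 (0.91) and AT2G23540 (0.91). AT1G73040 was nearest to AT4G13150 (0.88), AT5G20170 (0.86) and AT2G29260 (0.83), and the shared probe set of AT5G38550 and AT5G38540 to AT5G65240, AT1G43910 and AT1G76600 (0.89 each). The r values include the difference between clv1-15 and Ler, so such genes share it by the way they were chosen. No other jacalin-type gene was among the 3 nearest of any member.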

How the data were processed

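Per the submitters' processing notes, the authors processed the 13 ATH1 arrays with MAS5, with no version given, and the deposited values are linear signal intensity. The mean signal was 500.0 on every array with 2% trimmed at each end. Detection calls were not used here, and the number of arrays limits the precision. From these values log2(signal + 16) was computed. The 64 controls were removed, as was the weakest 30% of the remaining probe sets (by mean log2 value). The 5 groups were fitted together in limma 3.58.1 (R 4.3.3, lmFit and eBayes with a trend), with Benjamini-Hochberg adjustment over 15922 probe sets in each comparison. Errors are limma's standard errors for log2 differences and SD for signals. The script was tested on simulated data.

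Gene names were read from the probe table of the platform and updated to TAIR10.1 through gene IDs: 13513 probe sets had 1 gene, 503 several and 8730 none. A gene without a probe set here is thus one with none under its name, and the array may still hold probes for it. No pair of arrays was identical. The members and lists were chosen with earlier results of these data known. All members with a probe set are named, up to 4 genes past the threshold with the largest difference per list and comparison, and the 3 probe sets of highest r per member. Same-numbered arrays deviated from their group means with correlations of 0.0129 to 0.187 for clv1-15 and Ler, -0.185 to 0.235 for the lines and Col-0 and 0.306 between the lines, which have only 2 arrays each, and no label ties the numbers to a shared culture, so numbers were not treated as pairs. Alternatives changed the pseudocount, filter, normalization, variance model, array weights, blocks, groups fitted and arrays left out.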

Additional observations from a re-analysis of the deposited data

How the results depend on the processing

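Of 636 member values under alternatives, 598 kept their direction or size and their side of the threshold, 3 lost the threshold, 4 gained it, 1 moved and 30 tested ones changed sign, none of them past the threshold on either side. A further 5 untested values in clv1-15, all below 1.5-fold, also changed sign. In the mean of the CLE3ox lines, the shared probe set of AT5G38550 and AT5G38540 turned to -0.0027 with quantile normalization, -0.0036 with median centring, -0.0040 with array weights and -0.12 within the arrays of high spike-in signal. Within those of low spike-in signal AT1G52050 turned to 0.038 and AT1G52060 to 0.0077. The shared probe set turned to 0.0087 in CLE3ox 17-3 against Col-0 with the replicate block. AT1G73040, in CLE3ox 17-3 against CLE3ox 12-1, turned to -0.00066 with a pseudocount of 1, -0.0017 with quantile normalization and -0.0015 with median centring. With 1 array left out, ranges in the mean of the lines were -0.16 to 0.030 for AT1G52060, -0.17 to 0.015 for AT1G52070, -0.056 to 0.28 for AT1G73040 and -0.11 to 0.11 for the shared probe set. In CLE3ox 12-1 they were -0.072 to 0.27 for AT1G52050, -0.057 to 0.28 for AT1G73040 and -0.055 to 0.13 for the shared probe set. In CLE3ox 17-3 they were -0.20 to 0.41 for AT1G73040 and -0.25 to 0.18 for the shared probe set. Between the lines they were -0.047 to 0.37 for AT1G19715, -0.30 to 0.31 for AT1G73040 and -0.29 to 0.14 for the shared probe set. The count of members past the test stayed 0 in the mean of the CLE3ox lines and in CLE3ox 12-1 under every alternative run. In CLE3ox 17-3 against Col-0 it was 2 with the spike-in signal as a block and 0 to 1 with 1 array left out, and against CLE3ox 12-1 it was 0 to 1 with 1 array left out. In clv1-15 against Ler the count past 1.5-fold was 0 instead of 1 with the lowest 50% left out, since AT1G19715 was then not among the 4 tested members. In Col-0 against Ler the count of 4 became 6 of 8 with no filter, 3 of 4 with the lowest 50% left out and 3 to 4 with 1 array left out. With the replicate number as a block the counts were 0 in the CLE3ox comparisons, 1 in clv1-15 and 4 in Col-0 against Ler, as without it. That block lost AT5G49870 in the mean of the CLE3ox lines (-0.39, adjusted p 0.0601, limma). Over all probe sets, calls in the mean of the CLE3ox lines numbered 389, but 66 and 54 within the arrays of low and high spike-in signal, 206 to 375 with 1 array left out and 261 with both lines as 1 group. Median centring turned the share of higher calls in clv1-15 to 55.6%, against 45.0%. The causes were not tested.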
